A study of Mus musculus with 6 samples.

Results

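DNA methylation in Space GS cells and Ground GS cells was examined at 9 genes whose products write or remove this mark: *Dnmt1*, *Dnmt3a*, *Dnmt3b*, *Dnmt3l*, *Uhrf1*, *Tet1*, *Tet2*, *Tet3*, and *Tdg*. The genes are 9 of the 31751 that the deposited table names as closest to a CpG site. All CpG sites that the table assigns to them were taken, at any distance from the transcription start site (TSS), if they had at least 10 reads in all 6 samples. This left 478 of the 944 CpG sites listed for these genes, and 681804 of 2268080 in the whole table. Of the 478 sites, 196 lay within 1 kb of the TSS, here called promoter sites, and 282 lay farther away.

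GS cells are cultured spermatogonia with germline stem cell activity. They came from the transgenic line C57BL6/Tg14(act-EGFP-OsbY01), bred into a DBA/2 background, in which EGFP is driven by an actin promoter, and both groups carry this transgene. Space GS cells were frozen for 6 months on the ISS, Ground GS cells for 6 months on Earth, and both were analyzed 14 days after thawing with 2 passages. Each group had 3 replicates, named Space 1 to 3 and Ground 1 to 3. They are stated to be biological replicates, but separate cultures or animals are not described, so the p values measure the spread between these samples. The comparison asks whether frozen storage in space left a difference in DNA methylation at the genes that control it.

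DNMT1 copies methylation onto the new strand after replication, and UHRF1 brings it to hemimethylated DNA. DNMT3A and DNMT3B place methylation on unmethylated DNA, and DNMT3L, which lacks catalytic activity, assists them and is needed for methylation of imprinted genes and transposons in male germ cells. TET1, TET2, and TET3 oxidize 5-methylcytosine, and TDG excises some of the oxidized bases so that repair can restore cytosine. CpG islands at the start of widely used genes are usually free of methylation, whereas most isolated CpG sites in mammalian DNA carry it.

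In RRBS, or reduced representation bisulfite sequencing, restriction fragments rich in CpG are sequenced after bisulfite has converted cytosine but not 5-methylcytosine. The DNA methylation level of a site is the percent of its reads that stayed unconverted, so a cytosine that failed to convert also counts as methylated. The reads summed over sites were 28535973 to 33743845 per sample, and the median coverage of the member sites was 28 to 34 reads. GS cells were cultured on mouse embryonic fibroblasts, and the share of fibroblast DNA in the samples is not stated in the sources used here. The replicates are described as spermatogonia. Promoters of genes that are methylated in somatic tissues but not in germ cells, such as *Dazl* and *Ddx4*, were used as a check. All 13 such promoters that could be tested, of 16 listed, were below 10%, with a mean of 2.76% to 4.0% in Space GS cells and 1.88% to 4.69% in Ground GS cells.

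To place the measured sites on sequence, the RefSeq start windows of the members were compared with the table. A start window runs from 250 bases before to 50 bases after an annotated start, or 300 bases in all, on GRCm38.p6. The table is in mm39, so windows were matched by the spacing of their CpG sites, not by position. A window matched for 8 of the 9 genes, and none did for *Dnmt3l*. The upstream parts below are free of annotated exons, and measured CpG sites were marked in all of them except that of *Dnmt3l*. Its window was not matched, so reads at its CpG sites were not looked up. The first 2 *Dnmt3a* windows also matched and held measured sites, and they are not shown. Capitals mark each CpG with at least 10 reads in every sample, and other CpG sites are in lower case. For *Dnmt3l*, lower case says nothing about reads.
Dnmt1, chr9:20952624-20952707, - strand: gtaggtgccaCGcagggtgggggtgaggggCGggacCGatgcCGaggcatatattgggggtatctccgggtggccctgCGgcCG
Uhrf1, chr17:56304063-56304312, + strand: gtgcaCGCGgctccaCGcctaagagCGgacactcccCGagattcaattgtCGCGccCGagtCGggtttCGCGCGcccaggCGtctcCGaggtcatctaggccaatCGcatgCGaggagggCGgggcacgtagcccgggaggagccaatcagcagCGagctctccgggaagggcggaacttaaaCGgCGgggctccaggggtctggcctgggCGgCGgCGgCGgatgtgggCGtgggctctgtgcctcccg
Dnmt3b, chr2:153649199-153649448, + strand: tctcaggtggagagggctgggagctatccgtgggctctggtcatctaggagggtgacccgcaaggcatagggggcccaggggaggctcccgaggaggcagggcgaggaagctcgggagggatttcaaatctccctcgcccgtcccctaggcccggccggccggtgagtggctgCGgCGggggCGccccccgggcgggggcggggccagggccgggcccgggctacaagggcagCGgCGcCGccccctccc
Tet2, chr3:133544391-133544640, - strand: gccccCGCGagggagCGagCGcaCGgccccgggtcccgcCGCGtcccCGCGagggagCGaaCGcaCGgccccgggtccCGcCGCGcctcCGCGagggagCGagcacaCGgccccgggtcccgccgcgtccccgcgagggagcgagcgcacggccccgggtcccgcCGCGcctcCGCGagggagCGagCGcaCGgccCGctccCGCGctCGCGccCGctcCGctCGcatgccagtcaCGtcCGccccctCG
Tet3, chr6:83441679-83441754, - strand: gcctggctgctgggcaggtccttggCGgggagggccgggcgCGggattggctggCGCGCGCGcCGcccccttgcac
Tdg, chr10:82629588-82629827, + strand: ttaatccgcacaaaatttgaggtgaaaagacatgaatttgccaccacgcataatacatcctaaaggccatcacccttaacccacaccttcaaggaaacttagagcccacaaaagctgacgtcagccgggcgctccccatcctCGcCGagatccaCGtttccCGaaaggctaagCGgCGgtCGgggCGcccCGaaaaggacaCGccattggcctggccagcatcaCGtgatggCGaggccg
Dnmt3l, chr10:78042136-78042286, + strand: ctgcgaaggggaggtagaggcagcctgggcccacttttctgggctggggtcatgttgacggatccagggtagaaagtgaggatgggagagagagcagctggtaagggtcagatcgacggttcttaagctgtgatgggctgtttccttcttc

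The matched windows of most writers and erasers were rich in CpG. The *Tet2* window held 57 CpG sites, the *Dnmt1* and *Uhrf1* windows above 33 each, the *Dnmt3b* window 30, the *Tdg* window 26, and the *Tet3* window 22, whereas the median of all 32851 RefSeq windows was 7. The first 2 *Dnmt3a* windows held 46 and 47, and the third 18. Other windows held fewer, with 17 in that of *Tet1*, 12 in the other *Uhrf1* window, and 2 and 12 in the other *Dnmt1* windows. Windows with 30 or more CpG sites were 11.7% of all windows. RRBS fragments end where the enzyme MspI finds its motif, CCGG, which is the same on both strands and includes 1 CpG, and 52.8% of all windows held this motif. It occurred 8 and 6 times in the first 2 *Dnmt3a* windows, 7 times in the *Dnmt3b* window, and 5 times in that of *Tet2*. The *Dnmt1*, *Uhrf1*, and *Tet3* windows above held it 4 times each. The first *Dnmt3l* window held 6 CpG sites and not a single cutting site, and reads at its CpG sites were not looked up.

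The table's TSS was not the RefSeq start used above for every gene. The matched start lay 0 bp from the table's TSS for *Dnmt3b* and 11 bp from it for *Tdg*. It lay 974 bp away for *Dnmt3a*, 993 bp for *Uhrf1*, 7265 bp for *Dnmt1*, 17406 bp for *Tet3*, and 21672 bp for *Tet1*. Where several windows matched, that with the most covered sites was used. Another *Uhrf1* window matched with its start 17 bp from the table's TSS. For *Tet2* the start lay 749 bp away, but its sites were assigned to the neighboring gene *Gm42567*, and those of *Tet3* to *B230319C09Rik*. The sites within 1 kb came from only 5 genes: 54 from *Dnmt3b*, 49 from *Uhrf1*, 47 from *Tdg*, 45 from *Dnmt3a*, and 1 from *Tet3*.

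Almost all promoter sites of the members were unmethylated. Of the 196 promoter sites, 195 (99.5%) had a mean level below 10%, compared with 98.7% of the promoter sites of all genes. The exception was a single *Tet3* site 615 bp downstream of the TSS, at position 83435450 of chromosome 6, which had levels of 97.7%, 98.1%, and 92.3% in Space 1 to 3 and 92.7%, 97.7%, and 95.7% in Ground 1 to 3. More distant sites were mixed: 243 of 282 (86.2%) were below 10%, 20 lay between 10% and 90%, and 19 (6.74%) were above 90%. Among distant sites of all genes, 48.8% were below 10% and 34.7% above 90%.

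**Figure D1:**
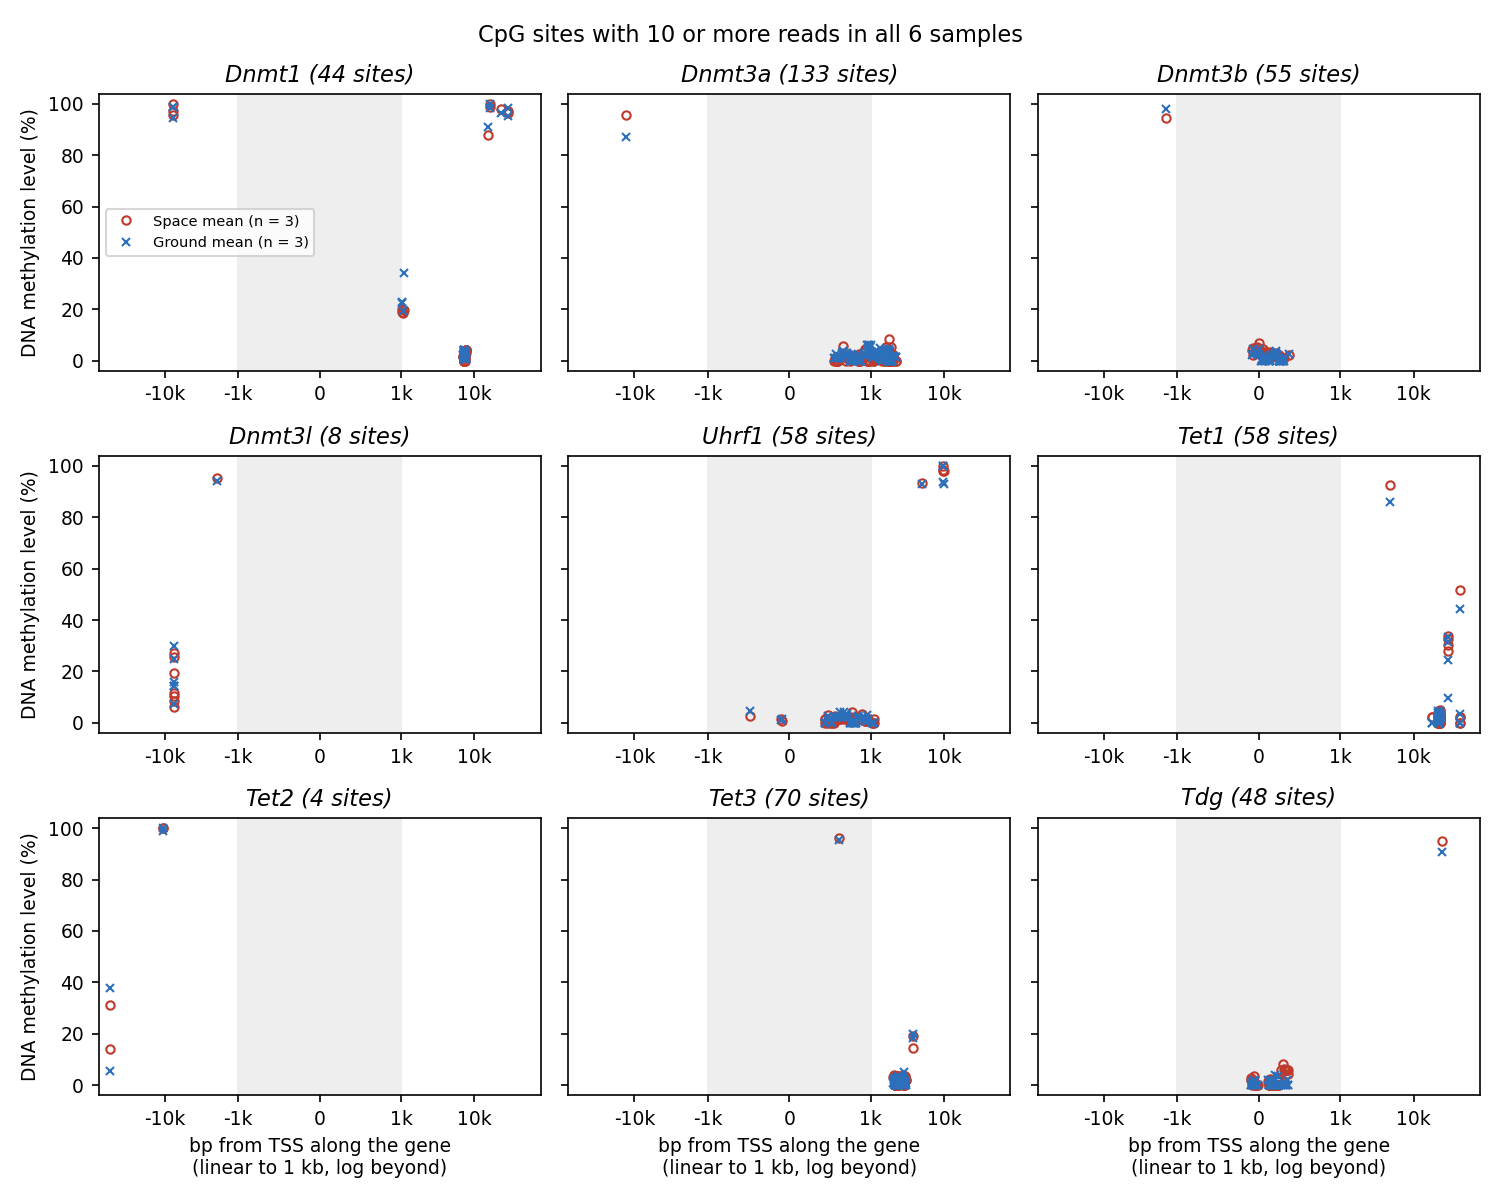
DNA methylation level (%) of each member CpG site against its distance in bp from the table's TSS, 1 panel per gene, with the mean of 3 Space replicates as circles and of 3 Ground replicates as crosses; the gray band is 1 kb on either side. Dense groups of sites lie near 0 also outside the band, as in *Dnmt1*, *Tet1*, and *Tet3*, and single sites lie near 100%.

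Distance from the TSS separated the levels less than the density of sites did. Promoter sites had a mean level of 2.29%, 1.68%, and 2.49% in Space 1 to 3 and 1.93%, 1.66%, and 1.57% in Ground 1 to 3. Distant sites had a mean level of 10.1%, 10.1%, and 9.82% in Space and 10.4%, 9.67%, and 9.79% in Ground. The difference was 7.80, 8.43, and 7.32 points in Space and 8.5, 8.01, and 8.21 points in Ground, so distant sites were higher in 6 of 6 samples and the groups overlapped. Its size depended on the set of sites: it was 2.60 points with at least 20 reads per site and 20.1 points when each gene had equal weight.

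The distant sites were divided into 2 classes by density. Those in runs of 10 or more sites, no more than 100 bp apart, were 227 sites of 5 genes, and their mean level was 1.34%, 1.57%, and 1.25% in Space and 1.81%, 1.63%, and 1.08% in Ground. The other 55 distant sites, from all 9 genes, had mean levels of 46.2%, 45.3%, and 45.2% in Space and 46.0%, 42.9%, and 45.7% in Ground. These 55 sites were themselves mixed, so their mean is not the level of a typical site. They held all 20 distant sites between 10% and 90% and all 19 above 90%. Others were below 10%, as in the *Dnmt1* run at 7536 bp. The dense runs had levels like those of the promoter sites in every sample, and Space and Ground overlapped in both classes.

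**Figure D2:**
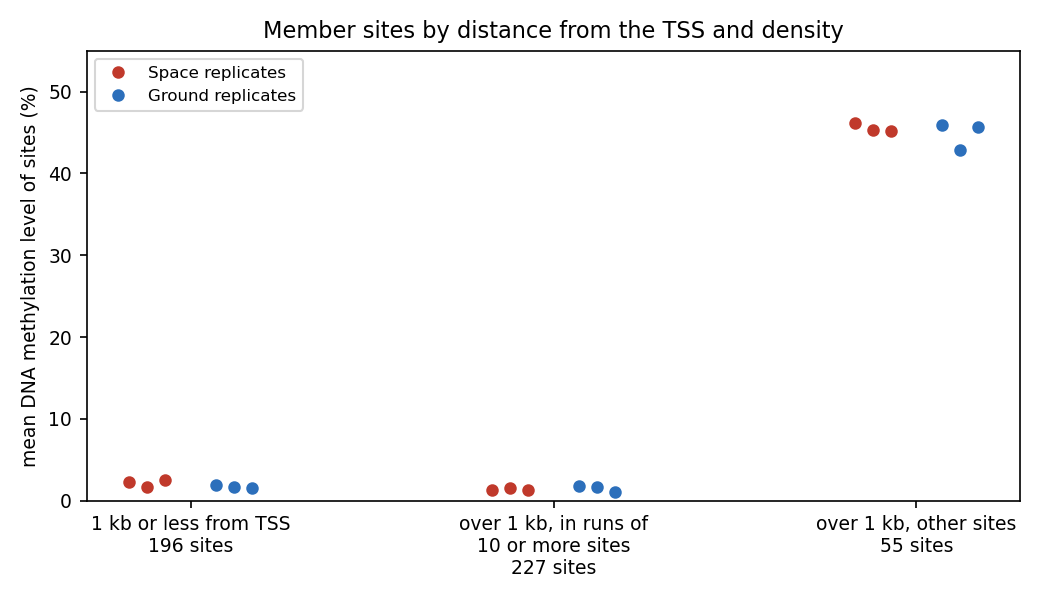
Mean DNA methylation level (%) of member sites in each of the 3 Space and 3 Ground replicates, for promoter sites, distant sites in dense runs, and other distant sites. The first 2 classes lie below 3% in all 6 samples and the third lies between 42.9% and 46.2%.

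Space and Ground GS cells were then compared with a quasi-binomial test on methylated and total reads, adjusted over all features of the same kind. No member passed the threshold at any scale. Of 14361 promoters with at least 3 sites, 0 had an adjusted p under 0.05, and 677 (4.71%) had an unadjusted p under 0.05, including 1 of 4 member promoters. edgeR and limma also called 0 promoters, with 572 and 666 at an unadjusted p under 0.05. Of 17203 sets of distant sites, 0 were called by any of the 3 tools, and 919 (5.34%) had an unadjusted p under 0.05, including 0 of 7 member sets. Member promoters without overlap between the groups numbered 1 with Space higher (5.69% of all promoters) and 0 with Space lower (3.86%), and member distant sets 0 and 0 (5.86% and 3.88%). The smallest adjusted p of a member was 0.962 among promoters and 0.946 among distant sets.

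The same held for shorter stretches. Of 50240 runs of at least 3 sites, 0 were called by the quasi-binomial test, edgeR, or limma, and 2470 (4.92%) had an unadjusted p under 0.05, including 3 of 18 member runs. edgeR gave 2040 and limma 2433 at that level. Space replicates were all above Ground replicates in 2 of 18 member runs, against 5.1% of all runs, and all below in 1 of 18, against 4.09%. The 3 runs were in *Dnmt3b*, *Dnmt3a*, and *Dnmt1*, and with 3 replicates against 3 the smallest p of a two-sided exact permutation test is 0.1. The median difference was 0.24 points over the member runs and 0.08 points over all runs.

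**Figure D3:**
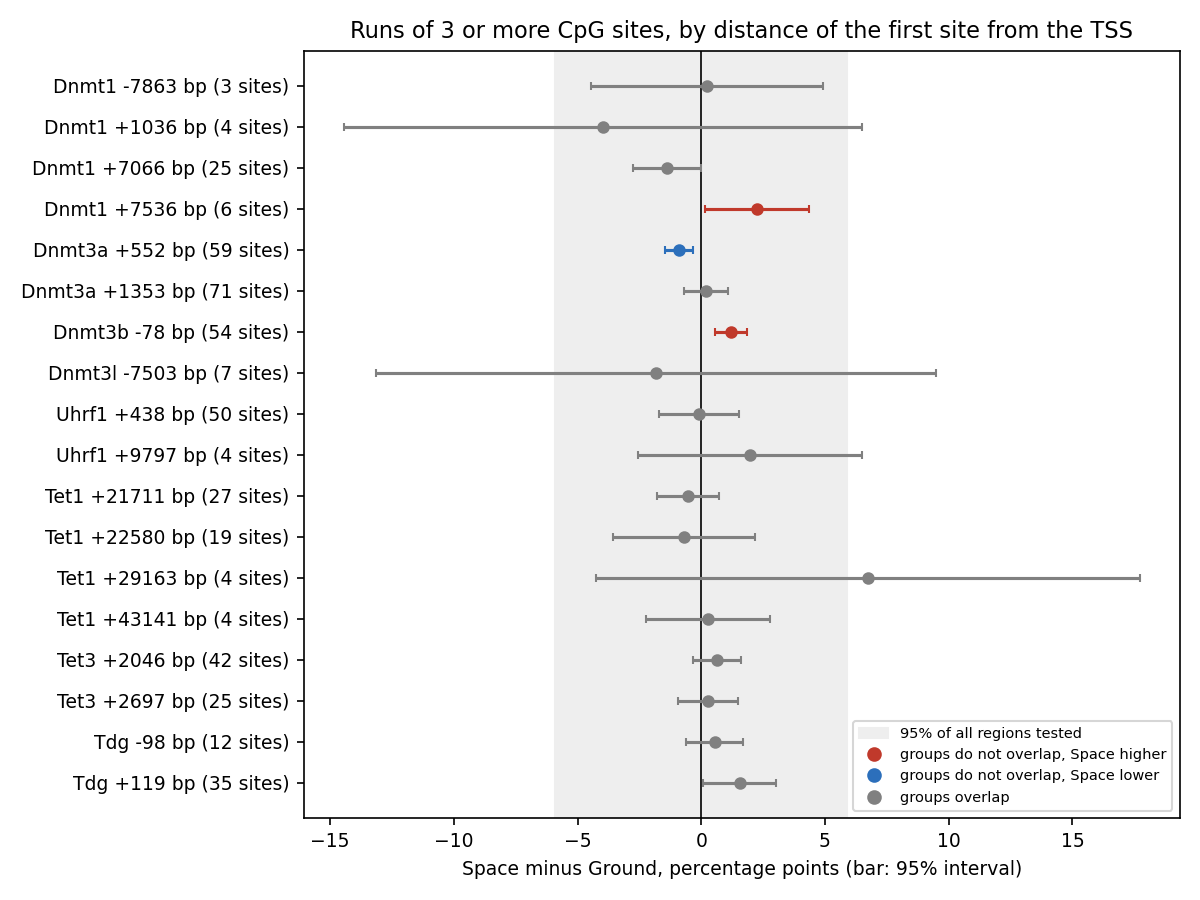
Space minus Ground DNA methylation level in percentage points, with 95% intervals of the quasi-binomial fit, for the 18 runs of at least 3 CpG sites in members, named by the bp from the TSS to the first site. The gray band holds 95% of all 50240 runs; 2 runs in which Space replicates are all higher are red, 1 in which they are all lower is blue.

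The maintenance gene *Dnmt1* had no covered promoter site, and its 44 sites lay 1036 bp or more from the table's TSS. The run at its matched start, 25 sites at positions 20863839 to 20864117 of chromosome 9, had levels of 0.872%, 1.24%, and 1.08% in Space and 3.29%, 0.798%, and 3.29% in Ground. Ground 1 and Ground 3 were above all Space replicates and Ground 2 was below them, so the groups overlapped. The difference was -1.40 points (95% interval -2.78 to -0.016, adjusted p = 0.939). The intervals are centered on the difference of mean sample levels and use each group's own variance. The test compares pooled reads and uses a common variance. An interval can therefore just miss 0 where the unadjusted p is just above 0.05. This occurred here, at the *Tdg* promoter, at the *Tdg* run 119 bp downstream, and at a *Tet2* site.

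A neighboring *Dnmt1* run went the other way. Its 6 sites, 7536 to 7643 bp downstream of the TSS, had levels of 4.31%, 4.62%, and 2.99% in Space and 1.09%, 1.64%, and 2.43% in Ground. All Space replicates were above all Ground replicates, by 2.25 points on average (95% interval 0.139 to 4.37, adjusted p = 0.939). This run was singled out after its values were seen. Summed over its 6 sites, 42 of 1053 read counts were methylated in Space and 17 of 970 in Ground. A read counts at each CpG it covers, and each site had 30 to 72 reads per sample. The sites at 7571, 7574, 7576, and 7584 bp repeated levels of 4.17%, 5.08%, and 3.28% in Space 1 to 3. The counts can therefore come from few DNA molecules.

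A partly methylated stretch lay just past 1 kb from the *Dnmt1* TSS. The 4 sites 1036 to 1101 bp downstream had levels of 26.5%, 16.2%, and 15.5% in Space and 19.4%, 23.3%, and 27.5% in Ground, which overlapped. The largest difference at a single *Dnmt1* site was there, at 1101 bp, where levels were 37.5%, 14.3%, and 7.69% in Space and 21.7%, 41.7%, and 39.1% in Ground. The difference was -14.4 points, with a 95% interval of -33.9 to 5.15 (adjusted p = 0.979) from 12 to 24 reads per sample, and it was -23.2 points without Space 1 and -8.29 points without Space 3. The 3 sites 7777 to 7863 bp upstream were highly methylated, with a pooled level of 95.2% to 100% and single sites at 90.5% or more in every sample.

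*Uhrf1*, the partner of *Dnmt1*, had an unmethylated promoter with 1 library standing apart. Its 49 promoter sites had levels of 1.85%, 0.550%, and 1.69% in Space and 3.50%, 0.442%, and 0.624% in Ground. Ground 1 was the highest and Ground 2 the lowest of the 6 samples, and the difference of -0.155 points had a 95% interval of -1.62 to 1.31 (adjusted p = 0.9997). The sign turned without Ground 1, to 0.833 points, and without Space 2, to 0.253 points. The 26 sites of the whole *Uhrf1* window, 25 of them in the printed stretch, had levels of 2.76%, 0.296%, and 1.08% in Space and 1.99%, 0.531%, and 0.277% in Ground.

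The distant *Uhrf1* sites combined both states. Their pooled level was 52.8%, 61.1%, and 52.4% in Space and 39.4%, 44.3%, and 56.2% in Ground, a difference of 8.80 points (95% interval -2.004 to 19.6, adjusted p = 0.946). It was 5.20 points without Ground 1, 13.6 points without Ground 3, and 1.62 and 2.19 points with limits of 500 and 2000 bp. With equal weight for each of the 9 sites the difference was 1.12 points. The set mixes unmethylated sites just past 1 kb with methylated sites farther out. The 4 sites 9797 to 9900 bp downstream had levels of 97.1%, 99.0%, and 100% in Space and 95%, 97.7%, and 97.4% in Ground.

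Among the de novo enzymes, *Dnmt3b* had a run of sites with all Space replicates higher and *Dnmt3a* a run with all of them lower, each by about 1 point and neither past the threshold. The 54 *Dnmt3b* promoter sites, at positions 153491292 to 153491741 of chromosome 2, formed a single run around the TSS. Their level was 2.69%, 1.91%, and 2.53% in Space and 1.11%, 1.30%, and 1.16% in Ground. All Space replicates were above all Ground replicates, and the smallest Space value exceeded the largest Ground value by less than 1 point.

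The mean *Dnmt3b* promoter level was 2.38% ± 0.411 (SD, n = 3) in Space and 1.19% ± 0.098 (SD, n = 3) in Ground. The difference of 1.19 points had a 95% interval of 0.350 to 2.03, an adjusted p of 0.962 among promoters and 0.939 among runs, and an exact permutation p of 0.1. Summed over sites, 175 of 7200 read counts were methylated in Space and 86 of 7242 in Ground. A read counts at each CpG it covers, so these are not separate molecules. Space was higher at 43 of the 54 sites and Ground at 11, and neighboring sites share reads. Space 1 was at 6.12% at every site from 35 to 80 bp downstream. From 252 to 310 bp Space 3 was at 3.33% at every site, with Space 1 and Space 2 at 0%. Most sites of these stretches are among the 43. Of all promoters, 95% differed by less than 2.79 points in either direction. The difference was 1.96 points with a limit of 2000 bp, and 0.851 points when 8 further sites within 1 kb, assigned to the gene *Dnmt3bos*, were added. With all sites within 1 kb of a TSS used in this way, *Dnmt3b* was 1 of 5 member promoters with Space all higher and 0 had Space all lower, against 5.76% and 3.75% of 15377 promoters.

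The *Dnmt3b* start window contains part of this run. The 11 sites of the whole window, 6 of them in the printed stretch, had levels of 4.38%, 3.13%, and 4.06% in Space and 1.88%, 2.32%, and 1.12% in Ground, again without overlap (exact permutation p = 0.1). For comparison, promoter sites of all genes had mean levels of 2.71%, 2.43%, and 2.35% in Space 1 to 3 and 2.74%, 2.33%, and 2.18% in Ground 1 to 3, so the samples did not split by group in this background. A single distant site, 1437 bp upstream, was methylated at 88.9% to 100%. The parts of incomplete conversion and of fibroblast DNA in levels this low were not tested.

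**Figure D4:**
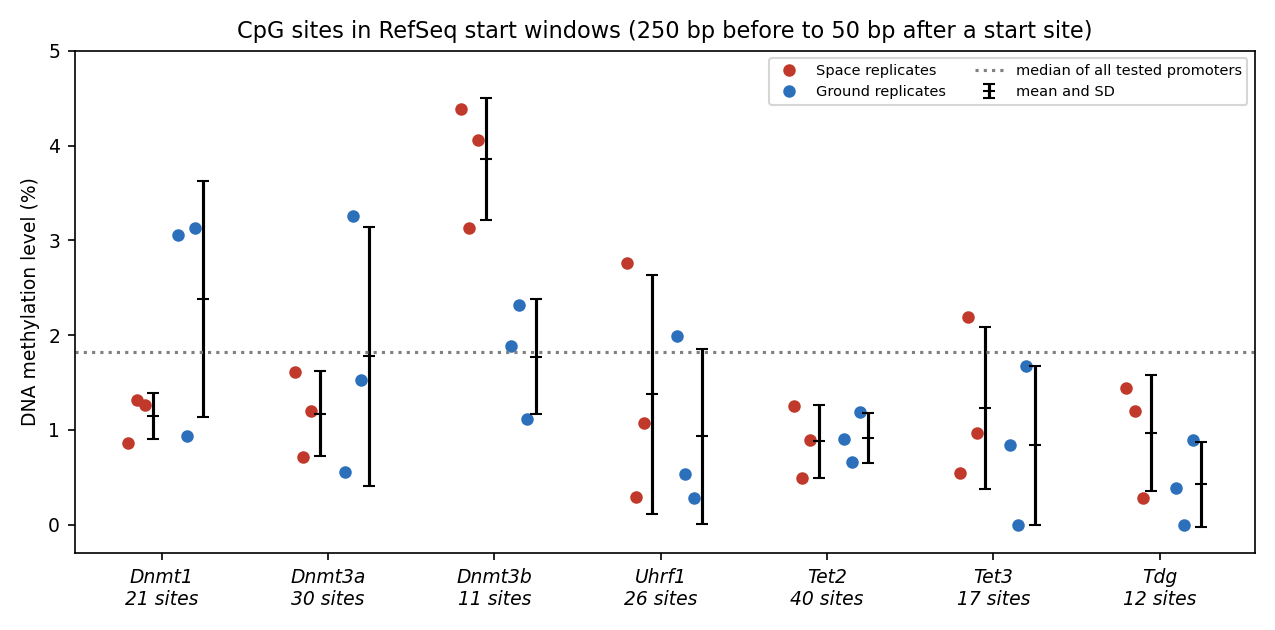
DNA methylation level (%) in the matched RefSeq start windows of 7 members with at least 10 covered sites, 1 point per replicate, with the mean and SD of 3 Space and 3 Ground replicates; the dotted line is the median level of all tested promoters, 1.82%. The groups are separate only in *Dnmt3b*, and all points lie below 5%.

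*Dnmt3a* had the most covered sites of the members, 133, in an island that spans the 1 kb limit. Its 45 promoter sites had levels of 1.81%, 0.834%, and 0.946% in Space and 1.29%, 2.34%, and 1.97% in Ground, with overlap between the groups and a difference of -0.670 points (95% interval -1.65 to 0.314, adjusted p = 0.962), or -0.434 points without Ground 2. The run of 59 sites 552 to 1124 bp downstream, which adds 14 sites to these, had levels of 1.35%, 1.04%, and 1.04% in Space and 1.83%, 2.23%, and 2.10% in Ground. All Space replicates were below all Ground replicates in this run, by -0.909 points (95% interval -1.48 to -0.335, adjusted p = 0.939, exact permutation p = 0.1).

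The next *Dnmt3a* run, 71 sites from 1353 to 2081 bp downstream, did not share this order. Its levels were 0.918%, 2.37%, and 1.86% in Space and 2.00%, 1.58%, and 0.974% in Ground, a difference of 0.196 points. In the first run Ground was higher at 37 of the 59 sites and Space at 19. A lone site 13103 bp upstream was methylated at 94.3%, 92.3%, and 100% in Space and 100%, 70.0%, and 90.9% in Ground, from 10 to 35 reads. The difference of 8.56 points was 15.1 points without Ground 1 and 0.077 points without Ground 2.

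*Dnmt3l*, the catalytically inactive cofactor, was the member with no CpG island in the data. Its 8 sites were all upstream, 7 of them in a run 7398 to 7503 bp away with levels of 11.1%, 24.6%, and 10.9% in Space and 23.8%, 9.29%, and 18.9% in Ground. Samples of both groups were high and low, and the difference of -1.83 points had a 95% interval of -13.1 to 9.48 (adjusted p = 0.996). The largest difference at 1 of its sites was -8.22 points, 7413 bp upstream (95% interval -20.4 to 3.98), and it was -5.21 points without Space 3, -12.8 points without Ground 2, and -4.81 points without Ground 3. The site nearest to the TSS, 1924 bp upstream, was methylated at 92.3% to 100% in all samples.

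Of the erasers, *Tet1* had 58 sites and all of them were distant. The runs at 21711 bp and 22580 bp downstream, close to the matched start, had levels of 0.483% to 2.79% and 0.430% to 5.08% over the 6 samples, with Ground 2 the highest in both. Farther into the gene, 4 sites 29163 to 29202 bp downstream were partly methylated, at 30.6%, 28.7%, and 36.0% in Space and 29.5%, 17.0%, and 28.6% in Ground. Space 2 was below Ground 1, so the groups overlapped, and the difference was 6.73 points (95% interval -4.27 to 17.7, adjusted p = 0.939). Without Ground 2 it was 2.73 points.

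One of these 4 *Tet1* sites had the largest difference of any tested member site. At position 62715572 of chromosome 10, 29202 bp downstream, levels were 22.2%, 16.0%, and 45.8% in Space and 12.9%, 12.5%, and 3.70% in Ground. All Space replicates were higher, but Space 3 was far above the others. The difference was 18.3 points (95% interval 4.45 to 32.2, adjusted p = 0.974, exact permutation p = 0.1) from 24 to 31 reads, and 9.41 points without Space 3. The other 3 sites differed by -0.692 to 5.69 points.

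That site was the only one of 28 tested member sites with an unadjusted p under 0.05, compared with 4371 of 92042 sites (4.75%). Of the 92042 sites, 0 were called by the quasi-binomial test, edgeR, or limma, with 3769 and 4292 at an unadjusted p under 0.05 by the latter 2 tools. Space replicates were all higher at 2 of 28 member sites and all lower at 0, against 4.94% and 4.13% of all sites. The other was a *Tet2* site 55515 bp upstream, with 18.0%, 12.2%, and 12.2% in Space and 3.23%, 8.33%, and 4.65% in Ground. Its difference was 8.73 points (95% interval 0.196 to 17.3, adjusted p = 0.974).

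The *Tet2* start itself was unmethylated in all samples. The 40 sites of its whole window, 37 of them in the printed stretch, had levels of 1.25%, 0.490%, and 0.891% in Space and 0.899%, 0.666%, and 1.19% in Ground, the closest match between groups among the windows, with a difference of -0.040 points. The 52 sites within 1 kb, all assigned to *Gm42567*, had levels of 1.15%, 1.01%, and 1.26% in Space and 1.46%, 1.11%, and 1.62% in Ground. The difference was -0.256 points (95% interval -1.11 to 0.600, adjusted p = 0.994). Of the 4 sites assigned to *Tet2*, those 10644 and 10662 bp upstream were methylated at 96.3% to 100%.

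*Tet3* showed the same low level in its island. The runs of 42 and 25 sites, 2046 to 2463 and 2697 to 2997 bp downstream, had levels of 0.568% to 2.34% and 0.410% to 2.58% over the 6 samples. Their differences were 0.632 points (95% interval -0.351 to 1.61) and 0.277 points (95% interval -0.927 to 1.48). The first was 1.04 points without Space 2, 0.339 points without Space 3, and 0.356 points without Ground 3. The 17 sites of the whole 300-base *Tet3* window, 7 of them in the printed stretch, had levels of 0.545%, 2.19%, and 0.968% in Space and 0.844%, 0%, and 1.67% in Ground. The groups overlapped in each of these stretches.

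*Tdg*, whose product excises oxidized bases, had 47 promoter sites. Their levels were 0.619%, 1.92%, and 2.15% in Space and 0.499%, 0.192%, and 0.693% in Ground. Space 2 and Space 3 were above all Ground replicates, but Space 1 was below Ground 3. The difference was 1.10 points (95% interval 0.006 to 2.20, adjusted p = 0.962, exact permutation p = 0.2), and 0.502 points with at least 20 reads per site. The run of 35 sites 119 to 356 bp downstream was at 0.289%, 2.40%, and 3.44% in Space and 0.555%, 0.341%, and 0.594% in Ground. Summed over its 35 sites, 32 of 1714 read counts were methylated in Space and 9 of 1800 in Ground, and 17 sites were never methylated. A read counts at each CpG it covers, and each site had only 11 to 22 reads per sample. The sites at 278, 328, 330, 334, 348, and 354 bp repeated 6.67% in Space 2 and 11.1% in Space 3. The counts can therefore come from few DNA molecules. The difference in this run was 1.55 points (95% interval 0.090 to 3.00, adjusted p = 0.939). It was 2.42 points without Space 1 and 0.850 points without Space 3. The 12 sites of the printed *Tdg* window differed by 0.546 points (95% interval -0.608 to 1.70).

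Other genes of DNA methylation, demethylation, and reading were taken as a list of 43, of which 31 had a testable promoter. None passed the threshold, 2 (*Uhrf2* and *Xrcc1*) had an unadjusted p under 0.05 with Space higher and 1 (*Nsd1*) with Space lower, compared with 4.71% of all promoters in either direction, and 14 were higher and 17 lower in Space. The median difference was -0.057 points, compared with 0.089 points over all promoters, and 30 of 31 were below 5%. The exception was *Zbtb38*, a reader of methylated DNA, at 11.8%.

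The groups did not overlap at 2 of the 31 promoters with Space higher (*Neil1* and *Xrcc1*), against 5.69% of all promoters, and at 1 with Space lower (*Nsd1*), against 3.86%. The 3 promoters of this list with the largest differences were *Neil1*, *Nsd1*, and *Ahcy*. *Neil1*, a repair glycosylase, had levels of 2.34%, 2.09%, and 4.30% in Space and 0.667%, 1.29%, and 1.36% in Ground. Its difference of 1.80 points had an adjusted p of 0.962 and was 1.11 points without Space 3, the highest sample. *Nsd1*, a histone H3 lysine methyltransferase, had levels of 1.97%, 1.90%, and 1.74% in Space and 4.40%, 2.83%, and 3.18% in Ground. *Ahcy*, which hydrolyzes S-adenosylhomocysteine, differed by -1.58 points, and by 0.288 points without Ground 3, which alone was at 6.15%.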

How the data were processed

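Genomic DNA of 3 Space and 3 Ground samples was analyzed by RRBS (DNeasy and Zymo-Seq RRBS kits, per the labels). The authors deposited 1 table with a read count (coverage) and the percent of methylated reads per CpG site and sample, and the closest TSS. The submitters' processing notes name mm39, Bismark 0.24.2, Trim Galore, and methylKit; trimming, strand merging and duplicate removal settings are not given in the sources used here. Reads have no stated molecular identifiers, so copies of 1 molecule may be counted, and errors cover the spread of 3 samples.

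Coverage times percent gave the methylated reads, within 0.000266 of a whole read. Samples were grouped by title. A site needed 10 or more reads in every sample. Reads were summed per gene within or beyond 1 kb of the TSS (at least 3 sites), per run (at least 3 sites, gaps up to 100 bp, 1 closest gene), or taken per site with a mean level of 5% to 95%. Groups were compared with a quasi-binomial score test, Pearson dispersion moderated by squeezeVar of limma 3.58.1 in R 4.3.3, and Benjamini-Hochberg adjustment over all features of a kind (threshold 0.05); group levels are means of 3 sample levels. Single values were compared with exact permutation tests. The test was tested on simulated data. A likelihood-ratio form was run first on these data; the score form replaced it, after those results had been seen, because the simulated data gave it a false positive rate nearer to the threshold. The members and lists were chosen with earlier results of these data known. Named were all members, per member the run and the tested site with the largest difference, and the 3 other pathway promoters with the largest difference; further names were chosen after their values were seen. Alternatives were coverage of 5 or 20 reads, windows of 500 or 2000 bp, gaps of 50 bp, at least 1 site, no limit on level, pooled or site-averaged levels, genes weighted equally, edgeR 4.0.16 quasi-likelihood and limma log2 ratios with 2 added to each count, a replicate block, and leaving out each replicate. RefSeq sequences (GRCm38.p6) were matched by CpG spacing, and no coordinates were converted.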

Additional observations from a re-analysis of the deposited data

How the results depend on the processing

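The number of called members and of called pathway promoters was 0 under every alternative run, including the likelihood-ratio statistic and the use of all sites within 1000 bp of a TSS, which were both added after the data were seen. With the likelihood-ratio statistic, 763 promoters, 942 distant sets, 2848 runs, and 5161 sites had an unadjusted p under 0.05, and 2, 0, 3, and 2 of them were members. The germline promoter mean moved by less than its spread at a coverage of 5 or 20 reads.

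The level of distant minus promoter sites, 8.04 points, was 10.03 and 2.60 with 5 and 20 reads, 6.84 and 10.1 with windows of 500 and 2000 bp, 5.26 with pooled reads, 20.1 with genes weighted equally, and 7.95 to 8.19 when each replicate was left out. The sign of small differences turned for *Uhrf1* promoter sites with site-averaged levels (0.062 points), edgeR (0.23, log2 scale), and limma (0.22, log2 scale), and over -0.695 to 0.833 points without single replicates. It also turned for distant sites of *Dnmt3a* (0.086 points site-averaged, -0.273 to 0.225 without single replicates), *Tet2* (0.887 site-averaged, -4.80 to 1.40 without single replicates), and *Tet1* (-0.395 to 0.585), for the *Ahcy* promoter (-2.54 to 0.288), and for the *Dnmt3l* run 7503 bp upstream (-6.34 to 1.41). Among single sites it turned for *Uhrf1* at 4958 bp (limma -0.0087 on the log2 scale, and -6.52 to 4.39 points), *Dnmt3b* at 9 bp (-0.294 to 4.26), and *Tet3* at 3778 bp (-10.01 to 1.83). The cause was not tested.

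The *Dnmt3b* promoter difference was 1.04 to 1.42 points, that of the *Dnmt3a* run at 552 bp -1.02 to -0.821, and that of the *Dnmt1* run at 7536 bp 1.93 to 2.74, when each replicate was left out. The sample descriptions carry consecutive numbers for the Space and Ground samples of the same replicate number. At single sites these samples deviated together only weakly (r = 0.0099 to 0.0438, under 0.1). For other pairs r was -0.0367 to 0.0146. Levels from few reads per site keep r small, so r could not settle whether samples were paired. The main test did not pair them. With the replicate block, 0 members were called among promoters, distant sets, runs, and sites, and 1052, 981, 4471, and 5884 features had an unadjusted p under 0.05. Without Ground 1, 5 of 91999 sites were called, none in a member. Single member sites rested on 10 to 86 reads per sample, which limits how small a difference could be detected.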
